A study of Danio rerio with 8 samples.

Results

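The tumour suppressor p53 is a transcription factor that is held at low protein levels by the ubiquitin ligase Mdm2 and its partner Mdm4 and accumulates after DNA damage or other cell stress. It then raises transcription of genes that stop the cell cycle, start mitochondrial apoptosis, or feed back on p53 itself, of which mdm2 is one. The p53 protein is controlled largely after transcription, so its activity is often read from the RNA of its targets.

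Described here are 9 genes of this response, chosen with earlier results of these data known and found by their symbols among the 35197 rows of the count table. They are the negative regulators mdm2 (ENSDARG00000033443) and mdm4 (ENSDARG00000057513), the arrest genes cdkn1a (ENSDARG00000076554) and ccng1 (ENSDARG00000076667), and the death genes pmaip1 (ENSDARG00000089307), bbc3 (ENSDARG00000069282) and baxa (ENSDARG00000089129). The last pair are phlda3 (ENSDARG00000037804), of survival signalling, and sat1a.2 (ENSDARG00000095908), of polyamine metabolism. All 9 were matched by 1 row each and all 9 passed the filter on low counts, which kept 21447 rows. RNA was measured in whole zebrafish larvae at 6 days post fertilization, 1 larva per library. The groups were 4 wild-type siblings and 4 zygotic homozygotes for the osgep G177A allele, meaning that their mothers still carried a wild-type copy. The product of osgep is the enzyme of the KEOPS complex, which adds threonylcarbamoyl groups to transfer RNA. No treatment was named for either group, and the labels give no clutch for a larva.

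Values are CPM, counts divided by library size and put on a common scale, with library sizes adjusted by TMM, a normalization that aligns the bulk of genes between libraries. Library totals lay between 14398814 and 19052595 estimated counts. The labelled material, whole larvae, was matched by markers of skeletal muscle, neurons, liver and exocrine pancreas, all of which had counts in every larva. osgep RNA was 3.17-fold lower in homozygotes, with no overlap between the groups. Wild-type larva 1 and homozygote 2 lay between the remaining wild-type larvae and the remaining homozygotes on the first principal component, so results are also given without this pair. That component comes from the same values, so leaving out the larva of each group nearest the other favours a wider difference. Calls over all rows rose from 61 higher and 165 lower of 21447 to 1694 and 2258 of 21545. In whole-larva RNA, fewer cells of a type and less RNA per cell cannot be told apart.

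The arrest gene cdkn1a and the death gene pmaip1 changed in opposite directions in homozygotes. cdkn1a rose 2.05-fold, while pmaip1 fell to a level 2.07-fold lower and sat1a.2, a gene of polyamine breakdown, to one 1.72-fold lower. The other 6 genes did not pass the test. Thus 1 of 9 genes was called higher, where 0.284% of all tested rows were, and 2 of 9 were called lower, where 0.769% were (edgeR's quasi-likelihood test, adjusted p below 0.05). Because the 9 genes were chosen with earlier results known, their excess over all rows is not an independent result. The values of the 2 genotypes did not overlap in 3 genes that were higher (mdm2, mdm4 and cdkn1a; 5.5% of all rows) and in 2 that were lower (4.95% of all rows). The median log2 fold change of the 9 genes was 0.12, against 0.02 over all tested rows. As background for the gene lists below, all 21447 rows held 2110 higher and 2663 lower at an unadjusted p below 0.05 in edgeR. DESeq2 called 578 of these rows higher and 1115 lower, and limma voom 34 and 102.

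**Figure D1:**
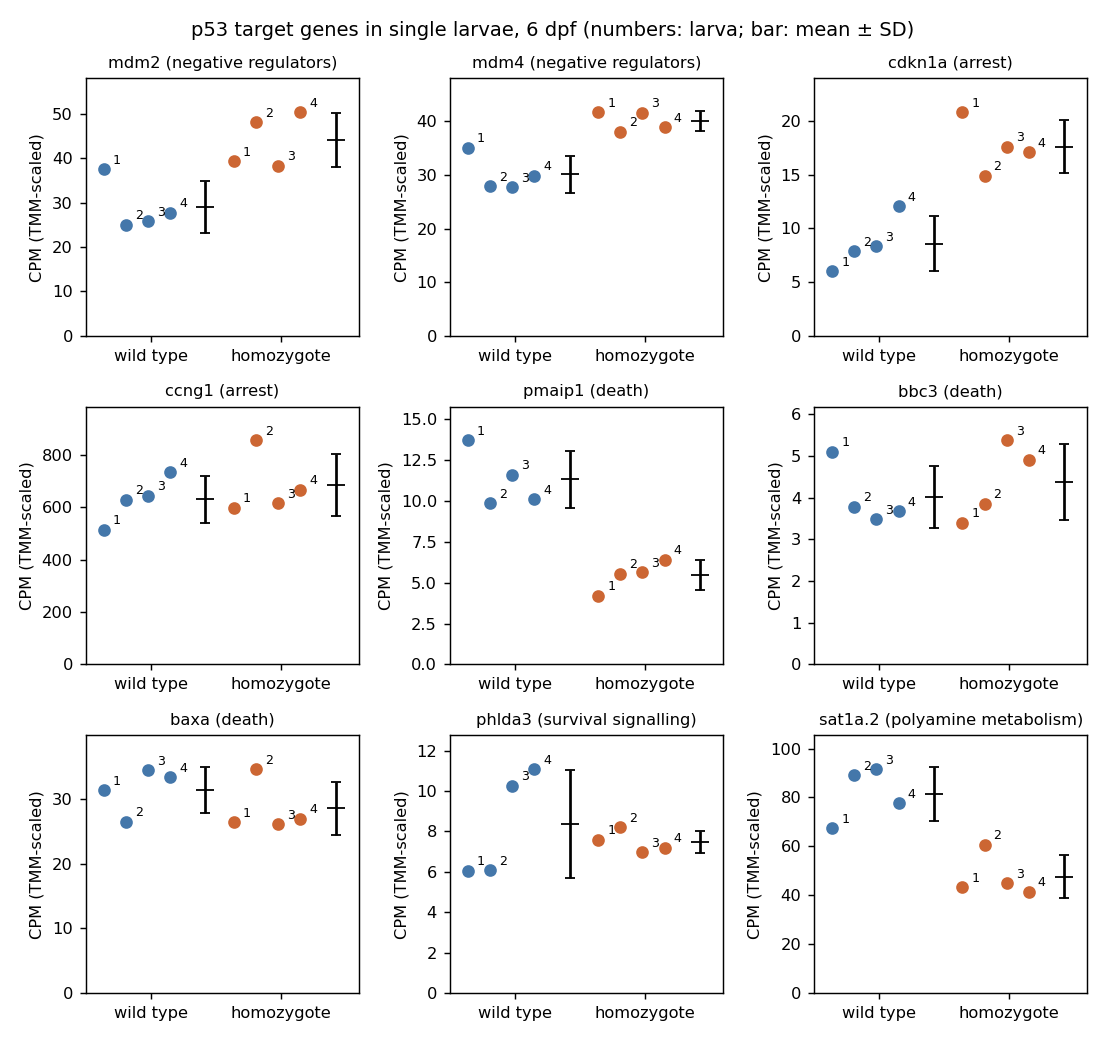
TMM-scaled CPM of the 9 p53 target genes in each larva, with 1 panel per gene and a linear axis from 0; points are larvae, numbered as replicates, and bars are mean ± SD of 4 larvae. cdkn1a lies at 14.9 CPM or more in homozygotes and at 12.1 CPM or less in wild type, while pmaip1 lies at 6.40 CPM or less in homozygotes and at 9.86 CPM or more in wild type.

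mdm2 encodes the ubiquitin ligase that marks p53 for degradation and is itself a p53 target, which makes its RNA a common readout of p53 activity. In wild-type larvae 1 to 4 the gene reached 37.5, 25.1, 25.8 and 27.7 CPM, and in homozygotes 1 to 4 it reached 39.4, 48.1, 38.3 and 50.4 CPM. All homozygotes lay above all wild-type larvae, but wild-type 1 came close to the lowest homozygote. On the log2 scale the difference was 0.60 (SE 0.17), which did not pass (adjusted p = 0.0856, edgeR quasi-likelihood test).

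mdm4 encodes a relative of Mdm2 that binds p53 and blocks its transactivation domain. CPM values were 35.1, 27.9, 27.7 and 29.8 for wild-type larvae 1 to 4 and 41.7, 38.0, 41.6 and 38.9 for homozygotes 1 to 4. Again wild-type 1 was the highest wild-type larva and the groups did not overlap. The log2 fold change of 0.41 (SE 0.14) did not pass (adjusted p = 0.125, edgeR). Both genes were called higher when wild-type 1 was left out (edgeR adjusted p = 0.0194 for mdm2 and 0.0426 for mdm4) and when wild-type 1 and homozygote 2 were both left out (0.0119 and 0.0219). In these settings 871 of 21819 and 1694 of 21545 rows were called higher, against 61 of 21447 with all larvae. Across the alternatives run, adjusted p values spanned 0.0119 to 0.253 for mdm2 and 0.0219 to 0.311 for mdm4.

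Among the other p53 family and upstream genes, 0 of 11 were called by edgeR (2 higher and 3 lower at an unadjusted p below 0.05; 0 higher and 3 lower by DESeq2; 0 by limma voom). usp7, for the enzyme that removes ubiquitin from p53 and Mdm2, was also read in each larva. CPM values were 40.9, 35.5, 30.4 and 33.2 for wild-type larvae 1 to 4 and 47.7, 42.2, 46.9 and 46.5 for homozygotes 1 to 4. All homozygotes lay above all wild-type larvae, by a narrow margin in homozygote 2, and the log2 fold change of 0.39 (SE 0.14) did not pass (adjusted p = 0.142, edgeR). rpl5b and rpl11 encode ribosomal proteins that bind Mdm2 when ribosome assembly fails. Their log2 fold changes were -0.66 (SE 0.25, adjusted p = 0.154, edgeR) and -0.86 (SE 0.31, adjusted p = 0.137, edgeR), with overlapping groups in both.

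cdkn1a encodes p21, the inhibitor of cyclin-dependent kinases through which p53 stops the cell cycle. In wild-type larvae 1 to 4 the gene reached 6.00, 7.89, 8.38 and 12.1 CPM, and in homozygotes 1 to 4 it reached 20.8, 14.9, 17.6 and 17.1 CPM. The lowest homozygote lay above the highest wild-type larva. The mean was 8.59 ± 2.55 CPM (SD, n = 4) among wild-type larvae against 17.6 ± 2.45 CPM (SD, n = 4) among homozygotes. The difference was 1.04 on the log2 scale (SE 0.21), which passed edgeR's quasi-likelihood test (adjusted p = 0.0392). Leaving out wild-type 2 ended the call (edgeR adjusted p = 0.122), as did leaving out wild-type 3 (0.142), homozygote 1 (0.110), homozygote 3 (0.0963) or homozygote 4 (0.0719), with log2 fold changes between 0.91 and 1.25 whichever larva was left out. Across the alternatives run, adjusted p values spanned 0.00126 to 0.142.

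ccng1 encodes cyclin G1, a direct p53 target that takes part in feedback on p53. CPM values were 515, 629, 644 and 734 for wild-type larvae 1 to 4 and 599, 856, 615 and 668 for homozygotes 1 to 4. The groups overlapped over most of their range, with homozygote 2 alone above wild type. The log2 fold change of ccng1 was 0.12 with a 95% interval of -0.33 to 0.57 (adjusted p = 0.772, edgeR). That interval spans falls and rises, and its upper end lies below the estimate for cdkn1a.

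In the list of other arrest genes, 0 of 12 were called by edgeR in either direction, while at an unadjusted p below 0.05 there were 1 higher and 6 lower (2110 and 2663 of all 21447 rows); limma voom called 0, and DESeq2 called 0 higher and 3 lower. Its median log2 fold change was -0.35, against 0.02 over all rows, and with libraries scaled by totals alone it was 0.05, against 0.40. The groups did not overlap in 5 of the 12, all lower in homozygotes, as in 4.95% of all rows. gadd45ba, a growth arrest and DNA damage gene, averaged 31.6 ± 6.22 CPM (SD, n = 4) among wild-type larvae against 15.5 ± 4.76 CPM (SD, n = 4) among homozygotes (log2 fold change -1.02, adjusted p = 0.0537, edgeR). DESeq2 called gadd45ba lower (adjusted p = 0.00307). So did edgeR with DESeq2's size factors (adjusted p = 0.0492), with no low count filter (0.0342), and without wild-type 1 (0.0351), wild-type 4 (0.0408) or homozygote 2 (0.0284). It was also called by edgeR without wild-type 1 and homozygote 2 together (0.0140), but not by limma voom or with library totals alone. btg2, an antiproliferative gene and p53 target in mammals, averaged 35.7 ± 5.22 and 22.0 ± 5.19 CPM (SD, n = 4 each; adjusted p = 0.0787, edgeR). gadd45bb had a log2 fold change of -0.75 (SE 0.26) and its groups overlapped. Among 18 markers of proliferating cells, 0 were called by edgeR (1 higher and 7 lower at an unadjusted p below 0.05; 0 by limma voom; 1 higher and 2 lower by DESeq2). Their median log2 fold change was -0.35, or 0.02 with libraries scaled by totals alone. Without wild-type 1 and homozygote 2 there were 1 higher and 8 lower, where 7.86% and 10.5% of all rows were. The summed level of these markers was 795 to 1268 CPM in wild type and 720 to 970 CPM in homozygotes, and no marker was at 0 in any larva. The part of these cells in the values of cdkn1a was not tested.

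**Figure D2:**
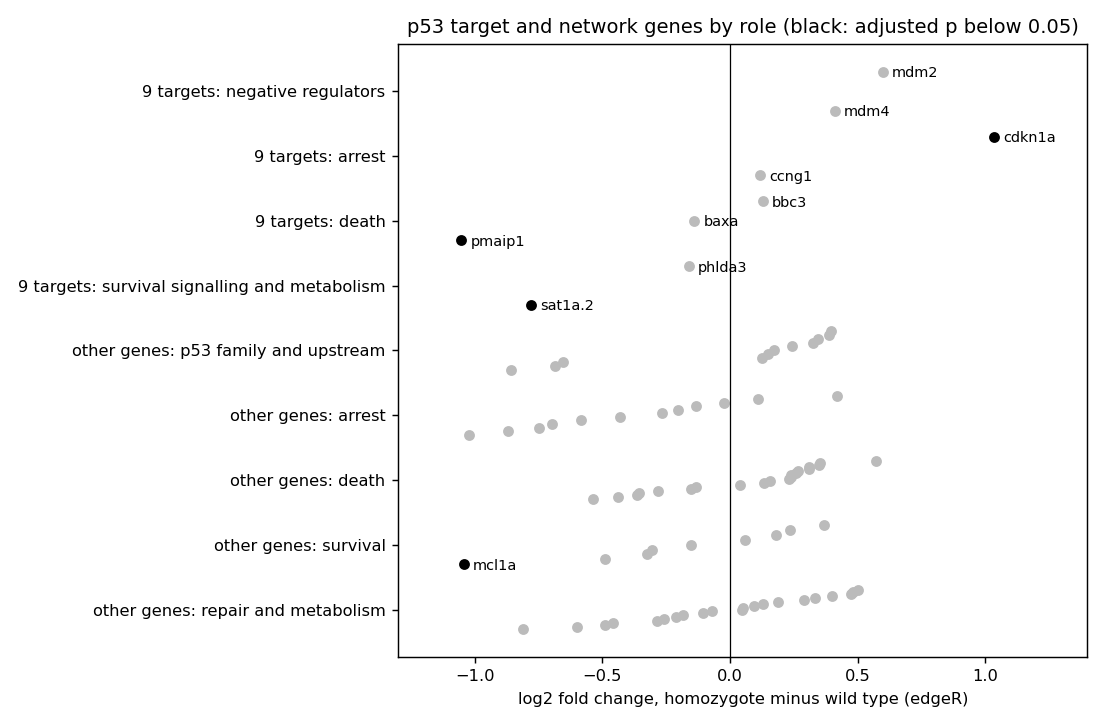
Log2 fold change between homozygotes and wild type (x axis, edgeR) for each of the 9 targets and 73 other p53 network genes, arranged by role on the y axis; black points passed an adjusted p below 0.05. cdkn1a at 1.04 is the only black point to the right of 0, and pmaip1, sat1a.2 and mcl1a are the black points to the left.

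pmaip1 encodes Noxa, a BH3-only protein that neutralises the survival protein Mcl1 and thereby opens the way to mitochondrial apoptosis. Wild-type larvae 1 to 4 had 13.7, 9.86, 11.6 and 10.1 CPM, and homozygotes 1 to 4 had 4.19, 5.55, 5.64 and 6.40 CPM. No homozygote came near the lowest wild-type larva. The mean was 11.3 ± 1.76 CPM (SD, n = 4) among wild-type larvae against 5.45 ± 0.921 CPM (SD, n = 4) among homozygotes, a difference of -1.05 on the log2 scale (SE 0.20) that passed edgeR's quasi-likelihood test (adjusted p = 0.0275). Leaving out wild-type 2 (edgeR adjusted p = 0.0569), wild-type 3 (0.0990), homozygote 1 (0.0893) or homozygote 3 (0.0805) ended the call. So did scaling by library totals only, where the difference was -0.70 and edgeR's adjusted p = 0.100, beside a median of 0.40 for all rows. Across the alternatives run, adjusted p values spanned 0.000188 to 0.100.

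bbc3 encodes Puma, another BH3-only protein, which binds all of the survival proteins of its family. In wild-type larvae 1 to 4 the gene reached 5.10, 3.78, 3.48 and 3.68 CPM, and in homozygotes 1 to 4 it reached 3.40, 3.85, 5.37 and 4.91 CPM. The genotypes overlapped fully, with the lowest larva and the highest both homozygous. For bbc3 the log2 fold change was 0.13 (95% interval -0.39 to 0.65, adjusted p = 0.789, edgeR), and at 46 to 121 counts per library bbc3 was among the least abundant of the 9.

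baxa encodes a Bax protein, which forms pores in the outer mitochondrial membrane once BH3-only proteins release it. CPM values were 31.4, 26.5, 34.5 and 33.4 for wild-type larvae 1 to 4 and 26.4, 34.7, 26.1 and 27.0 for homozygotes 1 to 4. Homozygotes 1, 3 and 4 lay together near wild-type 2, and homozygote 2 was as high as the highest wild-type larva. For baxa the log2 fold change was -0.14 (95% interval -0.47 to 0.19, adjusted p = 0.624, edgeR). Scaling by library totals only turned it to 0.22, where the median of all rows was 0.40.

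Among the other death genes, 0 of 20 tested were called by edgeR (1 higher and 1 lower at an unadjusted p below 0.05; 0 by DESeq2 and by limma voom). apaf1, for the scaffold on which caspase-9 is activated, averaged 45.7 ± 3.72 CPM (SD, n = 4) among wild-type larvae against 35.7 ± 1.46 CPM (SD, n = 4) among homozygotes, and ei24 averaged 12.9 ± 1.72 and 16.4 ± 0.939 CPM (SD, n = 4 each). Neither gene passed, and the groups overlapped in neither. The groups did not overlap in 1 higher and 1 lower of the 20 genes, as in 5.5% and 4.95% of all rows. bida, for the BH3-only protein Bid, had a log2 fold change of -0.37 (SE 0.18).

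Of 9 survival genes, edgeR called 0 higher and 1 lower, where 0.769% of all tested rows were lower. At an unadjusted p below 0.05 there were 1 higher and 2 lower. DESeq2 called 0 higher and 2 lower, and limma voom called 0. The groups did not overlap in 2 of the 9, both lower in homozygotes, as in 4.95% of all rows. mcl1a encodes the Mcl1 protein that Noxa binds. Wild-type larvae 1 to 4 had 243, 410, 292 and 209 CPM, and homozygotes 1 to 4 had 118, 159, 135 and 148 CPM. All homozygotes lay below all wild-type larvae, and wild type was the more spread group. The log2 difference was -1.04 (SE 0.22, edgeR adjusted p = 0.0405). It no longer passed without wild-type 2 (edgeR adjusted p = 0.0994), wild-type 3 (0.137), homozygote 1 (0.121), homozygote 3 (0.106) or homozygote 4 (0.0827), in limma voom (0.0561) and with library totals alone (log2 difference -0.63, 0.0610); across the alternatives run, adjusted p values spanned 0.000197 to 0.137. birc2, an inhibitor of apoptosis gene, and bcl2l1, for Bcl-xL, did not pass in edgeR with all larvae, at log2 fold changes of -0.49 (SE 0.16) and 0.37 (SE 0.17). The groups did not overlap in birc2, which DESeq2 called lower (adjusted p = 0.0373). Without wild-type 1 and homozygote 2, edgeR called birc2 lower (adjusted p = 0.0413) and bcl2l1 higher (0.0246), where 10.5% and 7.86% of all rows were.

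Markers of white blood cells were lower in homozygotes, as were pmaip1 and mcl1a. All 10 neutrophil and all 12 macrophage markers had a log2 fold change below 0. So did all 5 markers each of skeletal muscle, liver and exocrine pancreas. Of 10 neutrophil markers 5 fell and of 12 macrophage markers 7 fell, where 0.769% of all tested rows did, with median log2 fold changes of -1.97 and -1.56. The marker lists were chosen with earlier results of these data known, so their excess over all rows is not an independent result. Their summed levels were 1716 to 4360 CPM in wild type against 1193 to 2479 CPM in homozygotes for the neutrophil list, and 1526 to 2597 CPM against 1140 to 1647 CPM for the macrophage list. Most of each sum came from 1 marker that did not pass, cpa5 at 931 to 3465 CPM among the neutrophil markers (log2 fold change -0.46) and apoeb at 1061 to 2150 CPM among the macrophage markers (-0.17). Without it, a choice made after the values were seen, the other 9 neutrophil markers summed to 508 to 894 CPM in wild type and 198 to 263 CPM in homozygotes, and the other 11 macrophage markers to 215 to 470 CPM and 79.1 to 113 CPM, with no overlap in either. None of these markers was at 0 in any larva. In cpa5, wild-type larva 2 was highest and homozygote 3 lowest, as in all 5 exocrine pancreas markers. Whether cpa5 reports neutrophils here was not tested. The summed levels overlapped between genotypes for markers of skeletal muscle (43291 to 87522 CPM against 25056 to 59879 CPM) and of exocrine pancreas (6571 to 20977 CPM against 3841 to 9743 CPM), lists in which edgeR called 0 of 5 genes each but 3 and 4 were lower at an unadjusted p below 0.05 (3 and 1 by DESeq2, 0 and 0 by limma voom, and 4 and 5 by edgeR without wild-type 1 and homozygote 2, where 10.5% of all rows were lower). Of the other marker lists, edgeR called 0 of 10 for neural progenitors (1 higher and 1 lower at an unadjusted p below 0.05; 0 by DESeq2 and limma voom), 0 of 5 for neurons (0 at an unadjusted p below 0.05; 0 by DESeq2 and limma voom) and 0 of 5 for liver (1 lower at an unadjusted p below 0.05; 1 lower by DESeq2 and 0 by limma voom). The part of these cell types in the falls of pmaip1, mcl1a and sat1a.2 was not tested.

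sat1a.2 encodes a spermidine/spermine acetyltransferase, the enzyme that starts polyamine breakdown and whose human counterpart is a p53 target. In wild-type larvae 1 to 4 the gene reached 67.5, 89.1, 91.7 and 77.8 CPM, and in homozygotes 1 to 4 it reached 43.2, 60.6, 44.8 and 41.4 CPM. The groups did not overlap, and homozygote 2 came nearest to wild type. At -0.78 on the log2 scale (SE 0.17) the difference passed edgeR's quasi-likelihood test (adjusted p = 0.0451). It no longer passed without wild-type 2 (edgeR adjusted p = 0.123), wild-type 3 (0.165), wild-type 4 (0.0622), homozygote 1 (0.132), homozygote 3 (0.143) or homozygote 4 (0.114), in limma voom (0.0607), in edgeR without its robust option (0.0536) and with library totals alone (-0.40, adjusted p = 0.100); the range over all alternatives was 0.00158 to 0.165.

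The paralogs of sat1a.2 did not pass the test. sat1a.1 averaged 66.2 ± 7.47 CPM (SD, n = 4) among wild-type larvae against 70.6 ± 17.6 CPM (SD, n = 4) among homozygotes, a log2 fold change of 0.09 (SE 0.18), and sat1b had one of 0.05 (SE 0.20). The ratio of sat1a.1 to sat1a.2 counts within a larva, which does not depend on how libraries are scaled, was 0.885, 0.701, 0.716 and 0.987 in wild-type larvae 1 to 4 and 1.30, 1.02, 1.53 and 2.32 in homozygotes 1 to 4. Every homozygote had the higher ratio, by a narrow margin in homozygote 2. This ratio was not among the planned results. sat1a.2 alone was lower in every homozygote, so the ratio largely restates its fall. Reads shared between near-identical copies are divided by estimation, so this split is uncertain.

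phlda3 encodes a small protein that competes with Akt for membrane lipids and so weakens survival signalling. CPM values were 6.06, 6.08, 10.3 and 11.1 for wild-type larvae 1 to 4 and 7.59, 8.22, 6.97 and 7.20 for homozygotes 1 to 4. The homozygotes all fell within the gap between wild-type larvae 1 and 2 and wild-type larvae 3 and 4. For phlda3 the log2 fold change was -0.16 (95% interval -0.66 to 0.33, adjusted p = 0.708, edgeR), and 0.22 with library totals alone, where the median of all rows was 0.40.

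In the list of repair and metabolism genes, 0 of 21 were called by edgeR (3 higher and 3 lower at an unadjusted p below 0.05; 1 higher and 2 lower by DESeq2; 0 by limma voom). phlda2, a paralog of phlda3, averaged 35.3 ± 4.30 CPM (SD, n = 4) among wild-type larvae against 23.3 ± 1.85 CPM (SD, n = 4) among homozygotes (adjusted p = 0.0640, edgeR). gls2a, for a mitochondrial glutaminase, averaged 27.0 ± 3.57 and 38.2 ± 4.80 CPM (SD, n = 4 each; adjusted p = 0.105, edgeR), and sesn2, for a stress-induced inhibitor of mTORC1 signalling, 16.5 ± 1.73 and 11.7 ± 0.778 CPM (SD, n = 4 each; adjusted p = 0.109, edgeR). rrm2b, which supplies nucleotides for repair, and ddb2, which recognises ultraviolet damage, are standard p53 targets in human cells. Their log2 fold changes were 0.13 (SE 0.15) and -0.10 (SE 0.15), and this pair was singled out after its values were seen. xpc, polk and polh, also on this list, had 0.48 (SE 0.20), 0.33 (SE 0.30) and -0.21 (SE 0.16). None of them passed in edgeR, and they too were named after their values were seen.

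Whether arrest and death genes moved together was examined larva by larva. Relative to the wild-type mean on the log2 scale, cdkn1a lay at 1.31, 0.83, 1.07 and 1.03 in homozygotes 1 to 4, and pmaip1 at -1.40, -0.999, -0.98 and -0.80. Homozygote 1 was thus farthest from wild type in both genes and in opposite directions. bbc3 lay at -0.22, -0.04, 0.43 and 0.30 and baxa at -0.24, 0.15, -0.26 and -0.21 in the same larvae. Among homozygotes, all 3 death genes lay below the wild-type mean together only in homozygote 1. Wild-type 2 also had all 3 below it, with pmaip1 at -0.18, bbc3 at -0.07 and baxa at -0.24. Wild-type larvae themselves spanned -0.18 to 0.35 for bbc3 and -0.24 to 0.14 for baxa.

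**Figure D3:**
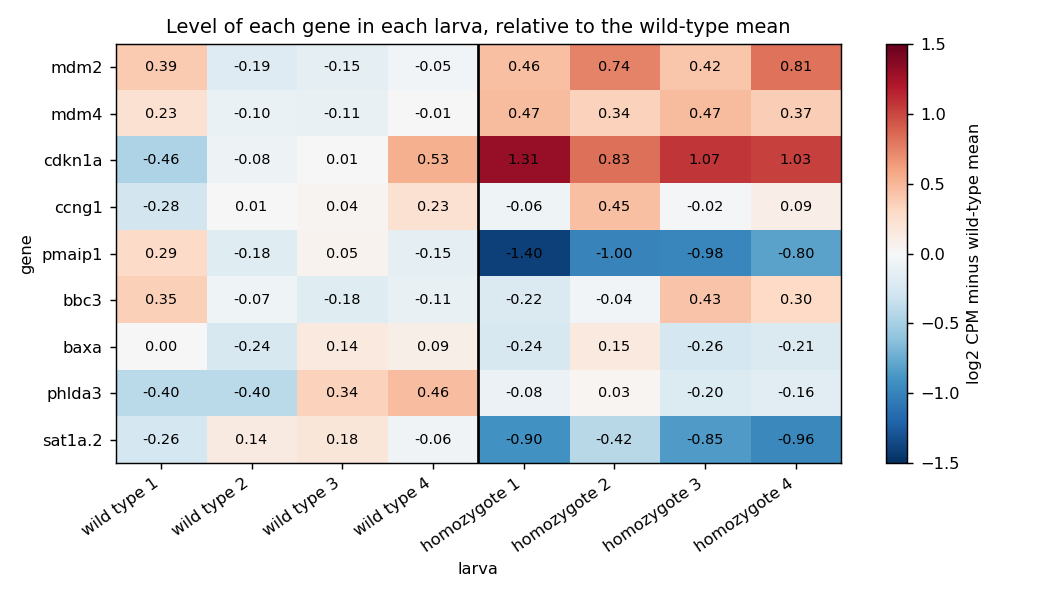
Heat map of log2 CPM (prior count 2) minus the wild-type mean, with 9 genes as rows and 8 larvae as columns; red is above and blue below the wild-type mean, and each cell prints its value. The homozygote columns are red for mdm2, mdm4 and cdkn1a, blue for pmaip1 and sat1a.2, and mixed for ccng1, bbc3, baxa and phlda3.

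The ratio of cdkn1a to pmaip1 counts within a larva does not depend on library scaling and was computed after the values were seen. It was 0.439, 0.800, 0.723 and 1.20 in wild-type larvae 1 to 4 and 4.97, 2.68, 3.13 and 2.67 in homozygotes 1 to 4. The lowest homozygote exceeded the highest wild-type larva, and homozygote 1 was above all others. Since cdkn1a was higher and pmaip1 lower in every homozygote, this separation was fixed in advance and adds no support.

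**Figure D4:**
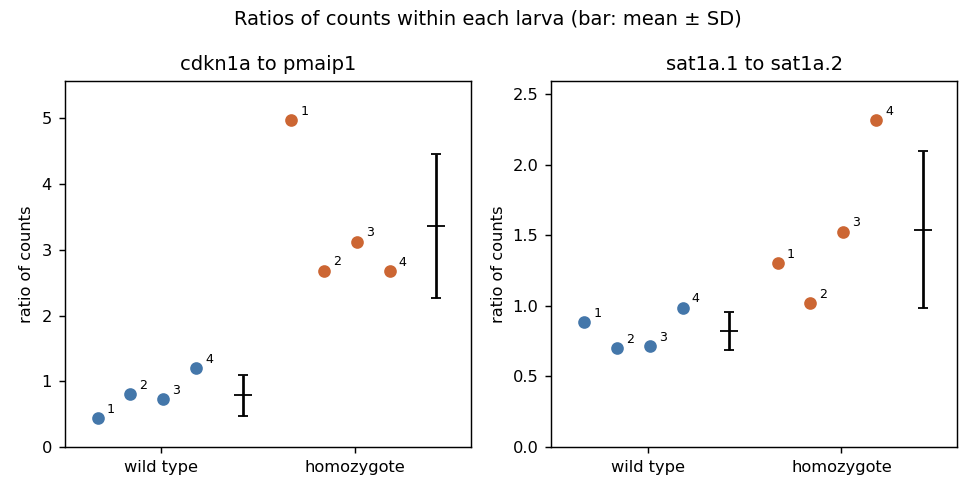
Ratio of estimated counts within each larva for cdkn1a to pmaip1 (left) and sat1a.1 to sat1a.2 (right), linear axes from 0; points are larvae numbered as replicates and bars are mean ± SD of 4 larvae. Both ratios are higher in every homozygote, with means of 3.36 against 0.789 on the left and 1.54 against 0.822 on the right. On the left this follows from the separate levels of cdkn1a and pmaip1. On the right it largely restates the lower level of sat1a.2.

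Correlations were planned for 6 pairs, each of 2 arrest genes with each of 3 death genes over the 8 larvae. cdkn1a separated the genotypes without overlap, so its pairs form separate clusters of 4 larvae and a relation within a genotype cannot be tested at that size. The pair of cdkn1a with pmaip1 was the 1 of 6 that passed over all larvae by Pearson's r (exact permutation p = 0.00685 adjusted over the 6 pairs) but not by Spearman's rho (0.0643), and it rests on the difference between genotypes. For this pair r of deviations from the group means was -0.67, or 0.03 with libraries scaled by totals alone, and carries no test. Pearson's r of cdkn1a was -0.02 with bbc3 (exact permutation p = 0.967) and -0.39 with baxa (exact permutation p = 0.316). Without the 2 larvae farthest from the median of cdkn1a these were 0.39 and -0.80. ccng1 did not separate the genotypes. Its Pearson r was -0.32 with pmaip1 (exact permutation p = 0.446; Spearman rho -0.14, p = 0.752; r 0.57 without the 2 larvae farthest from the median of ccng1). With bbc3 it was -0.38 (exact permutation p = 0.372; rho -0.14, p = 0.752; r -0.06 without those 2 larvae). With baxa it was 0.45 (exact permutation p = 0.284; rho 0.64, p = 0.0962; r 0.64 without them). After adjustment over the 6 pairs the Pearson p was 0.535 for each of these 3 pairs by the exact permutation test, and 8 larvae leave wide room for a relation in either direction.

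The genes whose pattern over the 8 larvae was most like that of mdm2, among 15072 named genes with a mean of at least 2 CPM, were fitm2, arf6b, lysmd4, boc and pi15b, with Pearson r of log2 CPM of 0.992, 0.990, 0.990, 0.982 and 0.974. For cdkn1a they were atp1b1a (r 0.976), hoxb9a (0.956), mrs2 (0.954), ugt5b1 (0.954) and phlda1 (0.953). None of these 10 genes was called between genotypes by edgeR. The values are the highest of many over 8 libraries that share scaling, and carry no test.

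Across the 73 other network genes tested, which came from 76 listed symbols, edgeR called 0 higher and 1 lower. At an unadjusted p below 0.05 there were 8 higher and 15 lower, where all 21447 rows held 2110 and 2663. DESeq2 called 1 higher and 10 lower, where it called 578 and 1115 of all rows. limma voom called 0, where it called 34 and 102 of all rows. These counts rest on the larvae included. Without wild-type 1 and homozygote 2 together, 3 of the 9 targets were higher (cdkn1a, mdm2 and mdm4; background 7.86% of 21545 rows) and 2 were lower (pmaip1 and sat1a.2; background 10.5%). In that setting 5 of the 73 network genes were higher and 9 lower, shares near those backgrounds. The higher genes were usp7, gls2a, plk2a, the survival gene bcl2l1 and the effector caspase gene casp3a (log2 fold change 0.55). The lower genes were gadd45ba, phlda2, gpx1a, the survival genes mcl1a, birc2 and bcl2l10, and the ribosomal protein genes rpl5a, rpl5b and rpl11. Log2 fold changes of rpl5a, rpl5b and rpl11 were -0.99, -0.92 and -1.29. Leaving out single larvae gave 0 to 3 targets higher and 0 to 2 lower. There were 3 and 2 without wild-type 1, where 871 and 1259 of all 21819 rows were called. Counts were 1 and 2 without homozygote 2, 1 and 1 without wild-type 4, and 0 and 1 without homozygote 4. They were 0 and 0 when either homozygote 1 or 3, or else wild-type 2 or 3, was left out. Over all rows, fits with 1 larva left out called 6 to 871 higher and 32 to 1259 lower.

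**Figure D5:**
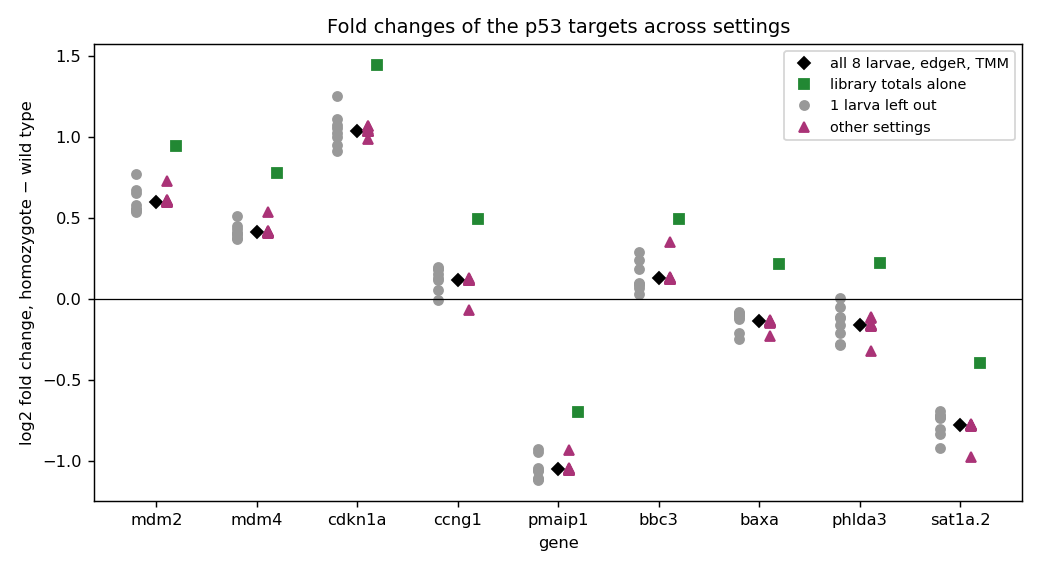
Log2 fold change between homozygotes and wild type (y axis) of each of the 9 targets (x axis) with all 8 larvae (black diamonds), with libraries scaled by totals alone (green squares), with 1 larva left out (grey circles) and in the other settings (purple triangles). cdkn1a stays between 0.91 and 1.44 and pmaip1 between -1.12 and -0.70, while baxa and phlda3 change sign with totals alone.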

How the data were processed

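Whole zebrafish larvae at 6 days post fertilization were homogenised singly and their RNA was sequenced after ribosomal RNA depletion, per the labels' protocols. The authors deposited a table of estimated counts by gene, made with Trimmomatic, STAR 2.7 and RSEM on danRer11, per the submitters' processing notes; their options, the annotation and strandedness are not given in the sources used here, so overlapping and antisense genes, and near-identical paralogs, are uncertain. It had 0 rows without a gene name and 0 columns from elsewhere.

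The estimated counts were first rounded to whole numbers. Rows passing filterByExpr at a minimum count of 10 were scaled with TMM and tested across the whole table with edgeR 4.0.16 (R 4.3.3), by a quasi-likelihood fit with the robust option, genotype as sole factor and a Benjamini-Hochberg threshold of 0.05. Standard errors and 95% intervals were derived from F statistics. The larvae are separate animals. Alternatives used DESeq2 1.42.0, limma 3.58.1, other scalings and filters, a replicate block and fewer libraries. Correlations used exact permutation of all 40320 pairings.

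The 9 genes and all lists were chosen with earlier results of these data known. Named are all 9 genes, osgep, network genes that passed, the 3 smallest p-values of each network list, and the 5 genes most like mdm2 and cdkn1a; further genes, rrm2b and ddb2 among them, were named after their values were seen. Of 76 network symbols 73 had a row; 2 more genes of the planned lists are not reported here. On simulated data for this comparison with 21141 genes, edgeR found 55% of 2-fold changes, 99% of 4-fold changes and 10 false calls in 164. DESeq2 found 68% and 100% of these changes, with 29 false calls in 197. Changes were simulated only in genes above a minimum mean level, and no larva was made to stand apart. Chi-square values per degree of freedom between libraries of a group were 19.4 to 73.6, above sampling noise.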

Additional observations from a re-analysis of the deposited data

Results flagged for a closer look

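In homozygous larvae, baxa stood out for a single larva. Homozygote 2 lay at 34.7 CPM and the others between 26.1 and 27.0 CPM, so that the gap to its nearest neighbour was 0.903 of the group's range, above Dixon's 95% critical value for 4 larvae. Of 20 groups of 4 examined (the 9 targets and mcl1a in each genotype) this was the only 1 past that value, and chance gives about 1 in 20.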

How the results depend on the processing

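The log2 fold changes of cdkn1a, pmaip1, sat1a.2, mdm2, mdm4, bbc3, mcl1a and osgep kept their direction in all 17 alternatives, and edgeR, DESeq2 or limma voom called cdkn1a in 12 of them, pmaip1 in 11, mcl1a in 10 and sat1a.2 in 8. Signs turned only in genes near 0 that were never called: baxa (0.22) and phlda3 (0.22) with libraries scaled by totals alone, phlda3 with 1 larva left out (-0.286 to 0.0036, above 0 without wild-type 4), and ccng1 with 1 larva left out (-0.0077 to 0.199, below 0 without homozygote 2) or without wild-type 1 and homozygote 2 (-0.071). Scaling by totals moved the median of all rows from 0.02 to 0.40, which shows in those 2 signs; it left 0 of the 9 targets lower, 0 network genes lower and 35 of all genes lower. DESeq2 gave 2 targets higher (mdm2 beside cdkn1a), 1 network gene higher and 10 lower, and 578 and 1115 of all genes. limma voom gave 1 target lower, 0 network genes lower and 34 and 102 of all genes. Without the robust option 1 target was lower. Median-of-ratios size factors and no filter each gave 2 network genes lower, and no filter 114 of all genes higher. Without wild-type 1 and homozygote 2 there were 3 targets higher, 5 network genes higher and 9 lower, and 1694 and 2258 of all genes. Single larvae left out gave 0 to 3 targets higher, 0 to 2 lower, 0 to 3 network genes higher, 0 to 7 lower, and 6 to 871 and 32 to 1259 of all genes. The cause of these moves was not tested.

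Larvae with the same number do not share a stated clutch or day, and their deviations from the group means correlated at -0.08, 0.05, -0.08 and -0.11. Of 4 wild-type larvae 1 correlated best with its own number, and of 4 homozygotes 0 did. A fit with the replicate number as a block gave 1 target lower, as pmaip1 had an adjusted p of 0.0527 (edgeR) at a log2 fold change of -1.05, and 261 of all genes lower. The count of arrest and death pairs correlated by Pearson's r, 1 of 6 (cdkn1a with pmaip1, which rests on the genotype difference), was 0 with totals alone and 0 without wild-type 1 and homozygote 2, and between 0 and 1 with 1 larva left out (0 without homozygote 1). With 46 to 121 counts per library, bbc3 is the member whose depth limits precision most.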

Other observations

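Other ratios of counts within a larva, free of library scaling and computed after the values were seen, were as follows. The ratio of mcl1a, the survival gene, to pmaip1, whose protein binds its product, averaged 26.3 ± 10.7 in wild type and 26.0 ± 2.82 in homozygotes (SD, n = 4 each), with overlap. The ratio of bbc3 to pmaip1 lay between 0.301 and 0.383 in wild type and between 0.694 and 0.953 in homozygotes, so every homozygote carried more Puma RNA per Noxa RNA than any wild-type larva. bbc3 alone overlapped between genotypes (log2 fold change 0.13), whereas pmaip1 alone was lower in every homozygote, so the ratio largely restates the fall of pmaip1. How often other genes separate in this way over pmaip1 was not computed.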
